A study of Mus musculus with 6 samples.

Results

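Domains of histone H3 acetylated at lysine 9 (H3K9Ace) were compared between mouse macrophages and adipocytes. The members were the regions of the deposited H3K9Ace list of each cell type, with repeated rows dropped and chromosomes 1 to 19 kept. This gave 36757 macrophage and 50496 adipocyte domains, 87253 of the 163892 regions in the final lists of the 6 libraries of the series. A domain was called overlapped when at least 1 bp of it lay in a domain of the other cell type. Domains were split by width into classes of 500 to under 1000 bp, 1000 to under 2000 bp, 2000 to under 5000 bp, and 5000 bp or more.

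H3K9 acetylation is placed by histone acetyltransferases and removed by histone deacetylases, and it marks the promoters and enhancers of active genes. Neutral charge on the acetylated lysine loosens the contact of the histone tail with DNA, and the acetyl group is read by bromodomain proteins. Narrow domains are typical of single regulatory elements, while long stretches are known from strongly expressed genes and from gene clusters. Macrophages are phagocytes of the myeloid lineage, and adipocytes are the lipid-storing cells of fat tissue.

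The macrophages were primary peritoneal cells of male C57BL/6 mice, washed out 3 days after an injection of 1 ml of 3% thioglycollate and kept adherent for 24 h, with at least 4 animals pooled for a run. 3T3-L1, a single preadipocyte line grown in culture, supplied the adipocytes after differentiation, and the labels name no further treatment for either group. The title and the antibody of both libraries read H3K9Ace, while their free-text description names PPARγ. The other libraries mapped PPARγ in both cell types, and PU.1 and C/EBPβ in macrophages. Per the labels, macrophage chromatin came from whole-cell lysates and 3T3-L1 chromatin from nuclear lysates, so the type of lysate and the cell type cannot be told apart. Each cell type had 1 H3K9Ace library, so no comparison has replicates and none carries a p-value. The bounds in parentheses after a share are its 95% Wilson interval. They reflect counting error alone, as if each domain were independent of its neighbours. The range over the 19 autosomes is given as a second measure of spread, although chromosomes of 1 library are not replicates. The files hold positions alone, in build mm8, without a height per domain or the number of reads, so the depth is unknown and the lists are not scaled for it. Acetylated here means inside a called domain, and a stretch outside a list may still carry acetylation that was not called. How far depth or the calling of domains sets the differences between the lists was not tested. No gene annotation in mm8 was used, so domains are named by position and no marker gene of either cell type was read.

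The adipocyte H3K9Ace list covered a longer part of the genome, and most of the excess lay in wide domains. The acetylated length was 52.2 Mb in macrophages and 98.7 Mb in adipocytes, a ratio of 1.89, while the number of domains differed by a ratio of 1.37. This corresponds to 2.12% and 4.01% of the 2460 Mb spanned by the regions of the 6 lists on the autosomes. The middle of the width distributions was nearly equal, with a median of 1050 bp in macrophages (quartiles 750 and 1750 bp) and 1000 bp in adipocytes (quartiles 700 and 2300 bp). The upper ends were far apart. The 99th percentile was 5600 bp in macrophages and 11803 bp in adipocytes, and the widest domains were 22400 bp and 67400 bp long. Widths were read on a coarse scale, since every start and width was a multiple of 50 bp and no domain was narrower than 500 bp.

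By number, the cell types were closest at 1000 to under 2000 bp and furthest apart at 5000 bp or more. The narrowest class held 15841 macrophage and 22150 adipocyte domains, a ratio of 1.40. Domains of 500 to under 1000 bp made up 43.1% of the macrophage list (42.6 to 43.6) and 43.9% of the adipocyte list (43.4 to 44.3). The class of 1000 to under 2000 bp held 13332 macrophage and 13574 adipocyte domains, a ratio of 1.02, with 17.8 and 18.0 Mb. As a share of each list that class differed most in percentage points, 36.3% against 26.9%. The next class, 2000 to under 5000 bp, held 7036 and 11077 domains, with 19.6 and 34.6 Mb. Domains of 5000 bp or more numbered 548 in macrophages and 3695 in adipocytes, a ratio of 6.74. They were 1.49% of the macrophage list (1.37 to 1.62, 0.719% to 2.01% over the autosomes) and 7.32% of the adipocyte list (7.09 to 7.55, 4.58% to 10.5%), so the ranges over chromosomes did not meet. Their length was 3.71 Mb in macrophages, 7.09% of the total, against 30.7 Mb in adipocytes, 31.1% of the total. At 10000 bp or more there were 36 macrophage and 744 adipocyte domains. Of the 46.5 Mb by which the adipocyte list exceeded the macrophage list, the widest class alone gave 27.0 Mb and the class of 2000 to under 5000 bp 14.97 Mb.

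**Figure D1:**
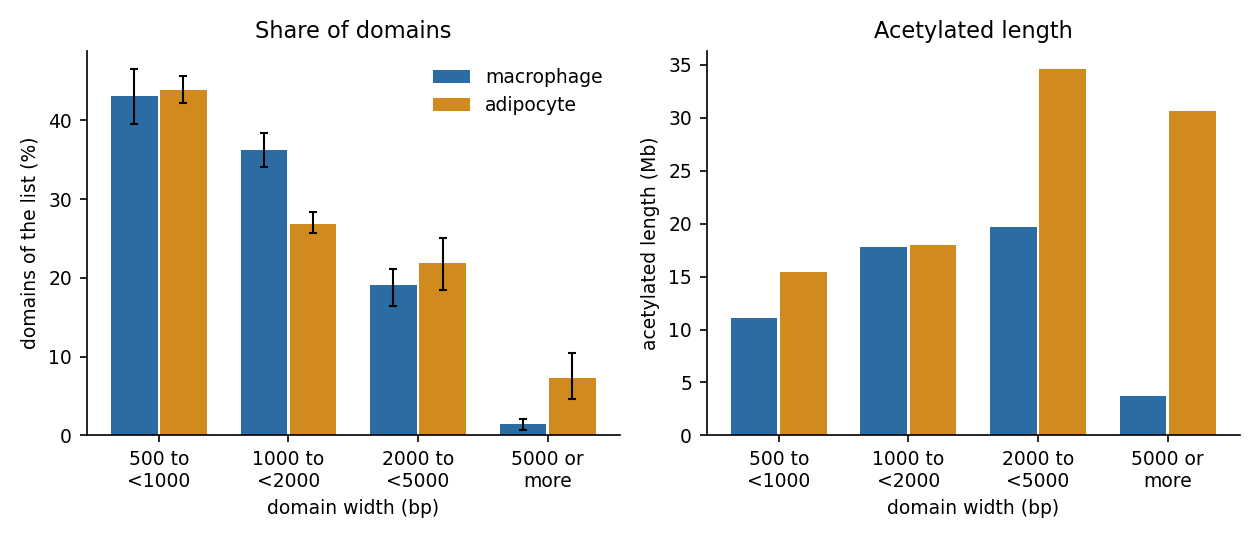
Left, the share of each list's domains by width class (percent), with whiskers for the lowest and highest of the 19 autosomes. Right, the acetylated length of each class in Mb. The classes from 1000 to under 2000 bp hold nearly equal lengths, 17.8 and 18.0 Mb, while domains of 5000 bp or more hold 3.71 Mb in macrophages and 30.7 Mb in adipocytes.

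Adipocyte domains also lay closer to each other. The median gap from the end of a domain to the start of the next was 9825 bp in macrophages and 2500 bp in adipocytes, and it was smaller in adipocytes on 19 of 19 autosomes. The next domain lay within 5000 bp for 36.8% of macrophage domains (36.3 to 37.3) and 60.5% of adipocyte domains (60.1 to 60.9). Within 1000 bp these shares were 14.0% and 33.9%. The lists came together at long range: gaps of at most 100000 bp made up 90.5% and 93.1%, and the longest gap was 12.3 Mb in macrophages and 12.4 Mb in adipocytes. In neither list was a gap shorter than 100 bp.

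Wide domains had the closest neighbours in both cell types. The nearest domain on either side of a macrophage domain of 5000 bp or more lay at a median of 850 bp, against 4350 bp for macrophage domains under 1000 bp. In adipocytes these medians were 450 bp and 1150 bp. Narrow adipocyte domains often stood beside wide ones: 17.4% of the 22150 domains under 1000 bp lay within 1000 bp of an adipocyte domain of 2000 bp or more (16.95 to 17.95), against 6.36% of the 15841 in macrophages (5.99 to 6.75). Adipocytes had 14772 domains of 2000 bp or more and macrophages 7584, and how far that number alone sets these shares was not tested.

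Because of this spacing the number of domains depended on how gaps were treated. Joining neighbours across gaps of at most 500 bp left 33843 macrophage and 39530 adipocyte domains, a ratio of 1.17. At 1000 bp the numbers were 31607 and 33392. At 2000 bp the order turned, with 28654 macrophage and 26992 adipocyte domains, a ratio of 0.942. The ratio of the lengths, gaps included, stayed between 1.89 and 1.95 up to joins of 2000 bp. The order of the numbers thus changed within short joins, whereas that of the lengths did not. At joins of 20000 bp the ratio of lengths was 1.21.

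**Figure D2:**
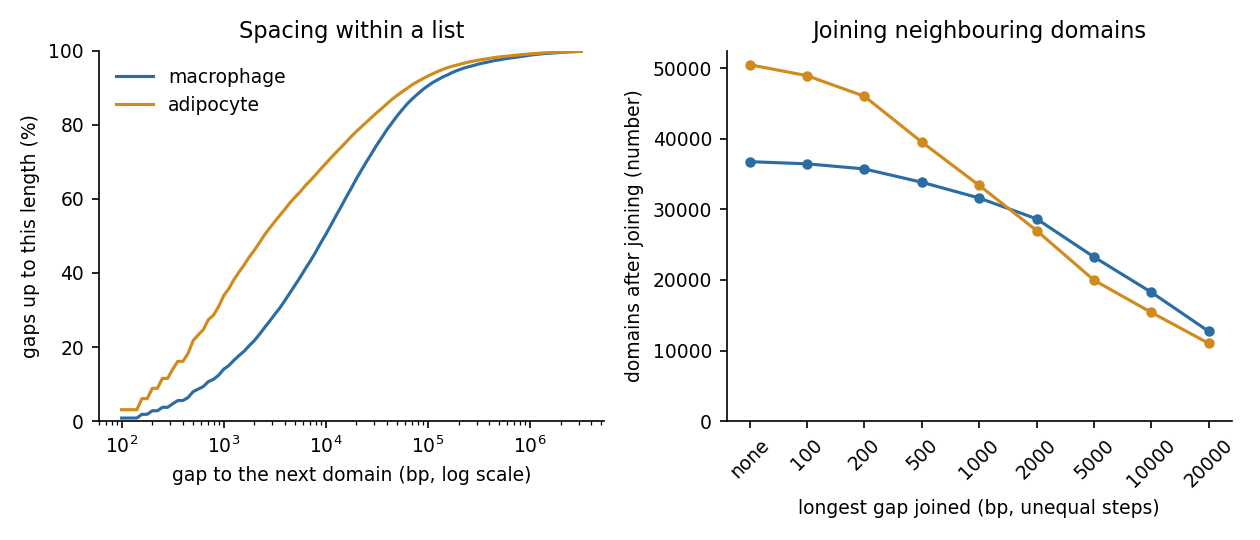
Left, the percentage of gaps up to a given length (log scale, bp) in each list. Right, the number of domains left after joining neighbours across gaps up to the length on the axis. The adipocyte curve lies above the macrophage curve at short gaps, 33.9% against 14.0% at 1000 bp, and the numbers of domains cross between joins of 1000 and 2000 bp.

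Most of the macrophage acetylated length lay in adipocyte domains, most of the adipocyte length lay outside the called macrophage domains, and the overlap rose steeply with width. The common length was 29.4 Mb, which is 56.3% of the macrophage length, 29.8% of the adipocyte length and 24.2% of the 121.6 Mb acetylated in either. Of the macrophage domains 17780, 48.4%, were overlapped, and of the adipocyte domains 15983, 31.7%. The share ranged from 36.9% (chromosome 1) to 61.1% (chromosome 19) in macrophages and from 23.0% (chromosome 6) to 39.2% (chromosome 10) in adipocytes. These ranges meet, but within each of the 19 autosomes the macrophage share was the higher, by least on chromosome 13 (37.52% against 37.47%). The adipocyte list covers 1.89 times the length, and these shares were not corrected for that. The order of the shares depended on joining: with gaps of at most 2000 bp joined they were 49.48% and 45.02%, at 5000 bp 52.59% in macrophages and 52.95% in adipocytes, and at 20000 bp 63.97% and 67.07%.

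Among domains of 500 to under 1000 bp, 27.2% were overlapped in macrophages (26.5 to 27.9) and 12.3% in adipocytes (11.8 to 12.7). The shares were 52.9% and 24.3% at 1000 to under 2000 bp, and 84.5% and 64.1% at 2000 to under 5000 bp. At 5000 bp or more they reached 88.9% (86.0 to 91.2) and 77.5% (76.1 to 78.8). A wider domain can meet others through its length alone, so the centre of each domain was also looked up. The centre lay in a domain of the other cell type for 23.7% of the narrowest and 80.3% of the widest macrophage class, and for 9.53% and 45.3% in adipocytes. The rise with width was therefore present for single points too. In macrophages the centre share did not go up further from 2000 to under 5000 bp (80.5%, 79.5 to 81.4) to 5000 bp or more (80.3%, 76.8 to 83.4). In adipocytes it fell over the same step, from 53.4% (52.5 to 54.3) to 45.3% (43.7 to 46.9), while the share overlapped at any point rose.

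The match was more complete from the macrophage side. Overlapped macrophage domains lay, at the median, wholly inside adipocyte acetylation (100% of their length), in each class up to 5000 bp and for 97.2% of the length above it. Overlapped adipocyte domains were covered at a median of 88.2% of their length in the narrowest class, 73.3% and 62.9% in the middle classes, and 44.6% at 5000 bp or more. Over whole classes, overlapped or not, macrophage acetylation covered 34.7% of the length of the widest adipocyte class, and adipocyte acetylation 75.5% of that of the widest macrophage class.

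**Figure D3:**
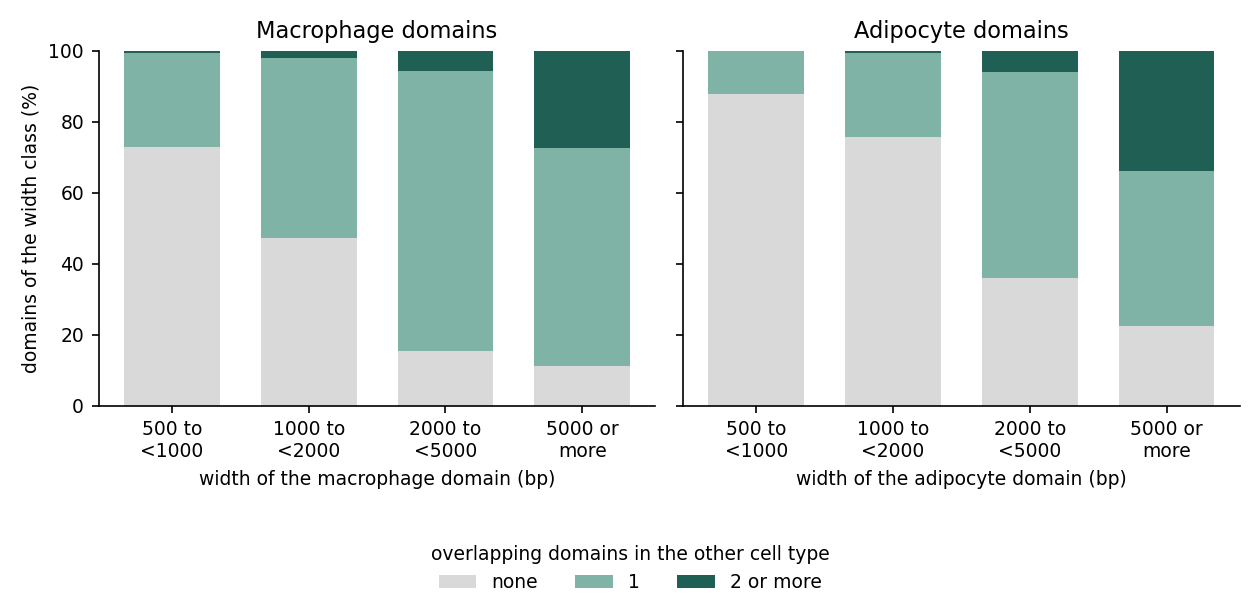
Percentage of the domains of each width class with no, 1, or 2 or more overlapping domains in the other cell type, for macrophage domains (left) and adipocyte domains (right). The unmatched part falls from 72.8% to 11.1% with width in macrophages and from 87.7% to 22.5% in adipocytes, and matches to several domains are frequent in the widest class alone, at 27.4% and 33.8%.

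Matches of 1 domain to several were uncommon overall and concentrated in the widest class. Several domains of the other list met 925 macrophage domains, 2.52%, and 2016 adipocyte domains, 3.99%. Under 1000 bp the shares were 0.524% in macrophages and 0.113% in adipocytes. At 2000 to under 5000 bp they were alike, at 5.77% (5.25 to 6.34) and 5.90% (5.47 to 6.35). These are shares of all domains of a class, and more adipocyte domains had no match. Of the overlapped domains alone, several met 1.93% in macrophages and 0.921% in adipocytes under 1000 bp, and 4.06% and 2.67% in the next class. At 2000 to under 5000 bp these shares were 6.83% and 9.19%, and at 5000 bp or more 30.8% and 43.65%.

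Of the 548 macrophage domains of 5000 bp or more, 61 had no adipocyte counterpart (11.1%), 337 had 1 (61.5%) and 150 had several (27.4%, 23.8 to 31.2). Of the 3695 adipocyte domains in that class, 831 had none (22.5%), 1614 had 1 (43.7%) and 1250 had several (33.8%, 32.3 to 35.4). The adipocyte class reaches to greater widths, with medians of 6850 bp against 6100 bp. Between 5000 and under 10000 bp the share with several was 26.4% in macrophages (22.7 to 30.3) and 26.9% in adipocytes (25.3 to 28.5), with intervals that overlap. Both are shares of all domains of that range, overlapped or not. In the same range the share with none still differed, 11.5% (9.04 to 14.6) against 23.7% (22.2 to 25.2). From 10000 to under 20000 bp, several counterparts met 13 of 34 macrophage domains, 38.2% (23.9 to 55.0), and 392 of 657 adipocyte domains, 59.7% (55.9 to 63.4). At 20000 bp or more they met 65 of 87 adipocyte domains, and both of the 2 macrophage domains.

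The pieces of split domains differed between the directions. Where a macrophage domain of 5000 bp or more met several adipocyte domains, the pieces were 1700 bp wide at the median, lay 400 bp apart at the median and covered a median of 83.3% of the macrophage domain. Where an adipocyte domain of that class met several macrophage domains, the pieces were 1400 bp wide, lay 850 bp apart and covered a median of 51.2% of it. Gaps of at most 1000 bp made up 83.8% of the 197 gaps between adipocyte pieces and 54.9% of the 2009 between macrophage pieces. Split or not, the widest macrophage class was covered over 75.5% of its length and the widest adipocyte class over 34.7%. Over the whole lists, 33.9% of adipocyte and 14.0% of macrophage gaps were at most 1000 bp. How far these differences set those of the pieces was not tested. After joining each list across gaps of at most 1000 bp, the share with several counterparts at 5000 bp or more was 11.2% in macrophages and 25.1% in adipocytes, and at joins of 5000 bp 4.25% and 16.8%. Joining also enlarged the class itself. At joins of 1000 bp it grew from 548 to 1284 macrophage and from 3695 to 5720 adipocyte domains, while those with several counterparts went from 150 to 144 and from 1250 to 1434. These are totals before and after joining, and they do not tell how many of the same domains stayed split.

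The widest domains show each of these forms. The widest adipocyte domain, on chromosome 6 at 52086851 to 52154250 (67400 bp), held 4 macrophage domains of 1000 to 2050 bp, which covered 8.83% of it. The next, on chromosome 14 at 24289551 to 24348600 (59050 bp), met 13 macrophage domains of 550 to 13900 bp, the largest number of any adipocyte domain of 5000 bp or more, and they covered 77.6%. Most of that stretch was thus acetylated in both cell types, in 1 domain in adipocytes and in 13 in macrophages. The domain on chromosome 19 at 47329251 to 47382750 (53500 bp) met a single macrophage domain of 800 bp, covering 1.495%. The widest adipocyte domain with no counterpart lay on chromosome 1 at 74020301 to 74047500 (27200 bp), and the nearest macrophage domain was 19.55 kb away. It held 3 adipocyte PPARγ peaks and none of the macrophage factors.

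In macrophages the widest domain, on chromosome 7 at 142187751 to 142210150 (22400 bp), met 3 adipocyte domains that covered 49.6% of it, and it held 10 PU.1 and 7 C/EBPβ peaks. The domain on chromosome 4 at 144156301 to 144176450 (20150 bp) met 5, covering 88.3%. On chromosome 12 the domain at 87770951 to 87787950 (17000 bp) lay wholly inside 1 adipocyte domain of 20100 bp. This was the widest macrophage domain with exactly 1 counterpart. The most counterparts, 6, met the domain on chromosome 14 at 62075401 to 62089200 (13800 bp, 67.0% covered). The widest without any, on chromosome 3 at 96069551 to 96083600 (14050 bp), held 8 PU.1 peaks and lay 30.45 kb from the nearest adipocyte domain.

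Pairs in which 1 macrophage and 1 adipocyte domain overlapped each other and no further domain made up most of the places acetylated in both. There were 12308 such pairs among 14974 groups of overlapping domains, 82.2%. In 1763 groups several macrophage domains met 1 adipocyte domain, in 676 groups 1 macrophage domain met several adipocyte domains, and in 227 several met several. The form with 1 adipocyte domain held 13.9% of the macrophage and 14.2% of the adipocyte acetylated length, and its adipocyte domains had a median width of 6500 bp.

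Within pairs the adipocyte domain was usually the wider. The median width was 1600 bp in macrophages and 2550 bp in adipocytes, and the median ratio of adipocyte to macrophage width was 1.43 (quartiles of the log2 ratio 0.061 and 1.04). The adipocyte domain was wider in 9413 pairs, 76.5% (70.8% to 80.9% over the autosomes), the macrophage domain in 2634 and neither in 261. The macrophage domain lay within the bounds of a wider adipocyte domain in 59.3% of pairs, and the reverse held in 11.4%. The adipocyte domain reached further by a median of 300 bp at the left and at the right edge. The centres were 300 bp apart at the median, so within a pair the edges often differed in how far they reached.

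Grouped by macrophage width, the ratio of widths was lower in the wider classes. The median ratio was 1.73 for macrophage domains under 1000 bp, 1.46 and 1.36 in the middle classes, and 1.08 at 5000 bp or more. In bp the medians of 700 and 1200, 1450 and 2150, 2600 and 3700, and 5800 and 6650 in these classes lay further apart in the wider classes than in the narrowest. In the widest class the adipocyte domain was wider in 116 of 194 pairs, 59.8% (52.8 to 66.4). Pairs were picked here by the macrophage width, and the direction of this gradient depended on that choice. Picked by adipocyte width, the median ratio was 0.733 under 1000 bp, 1.21 and 1.59 in the middle classes, and 2.535 at 5000 bp or more. The adipocyte domain was then the wider in 21.8% of pairs in the narrowest class and 98.1% in the widest. In 146 pairs both domains had at least 5000 bp, with a median ratio of 1.15 and the adipocyte domain wider in 79.5% (72.2 to 85.2). The most alike of these, on chromosome 11, had 5450 bp in each cell type, at 4995801 to 5001250 in macrophages and 4996551 to 5002000 in adipocytes. The most unequal, on chromosome 10, had 5350 bp at 126689901 to 126695250 in macrophages and 17500 bp at 126684201 to 126701700 in adipocytes. A ratio of at least 4 toward adipocytes occurred in 804 pairs and toward macrophages in 94.

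**Figure D4:**
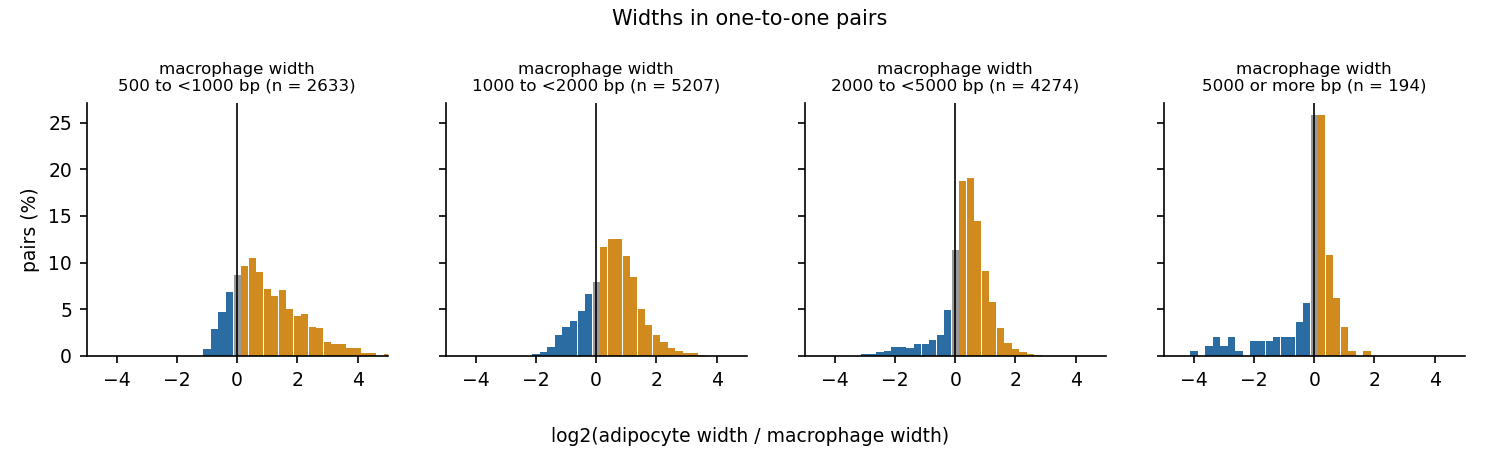
Histograms of log2(adipocyte width / macrophage width) in one-to-one pairs, in 4 classes of macrophage width, as a percentage of the pairs of a class; orange bars are wider in adipocytes, blue bars wider in macrophages, and the grey bar is the bin around equality. The bulk lies to the right of 0 in each class under 5000 bp. In the widest class 25.8% of pairs lie in the bin around equality, and the adipocyte domain is wider in 59.8%. The median ratio falls from 1.73 in the narrowest class to 1.08 in the widest. In classes of adipocyte width, not shown, it rises from 0.733 to 2.535.

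Acetylated length called in 1 cell type alone was distributed differently in the lists. Macrophages had 22.8 Mb outside the called adipocyte domains, and 84.2% of it lay in domains with no counterpart. Adipocytes had 69.3 Mb outside the called macrophage domains. Of this, 24.5 Mb, 35.4%, lay in overlapped adipocyte domains, beyond or between the macrophage domains they met, and 44.8 Mb formed separate domains. Unmatched domains were narrow, with a median of 850 bp in macrophages and 900 bp in adipocytes, against 1550 bp and 2650 bp for overlapped domains.

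Most unmatched domains were not at the edge of a counterpart. The nearest domain of the other cell type was at a median of 15.1 kb from the 18977 unmatched macrophage domains and 8.45 kb from the 34513 unmatched adipocyte domains. Within 1000 bp lay 9.17% and 11.3%. Further than 50000 bp from any counterpart were 4579 macrophage domains, 24.1% (23.5 to 24.7), and 5898 adipocyte domains, 17.1% (16.7 to 17.5). Wide unmatched domains were the more remote. At 5000 bp or more the median distance was 28.0 kb in macrophages (n = 61) and 16.9 kb in adipocytes (n = 831). Unmatched adipocyte domains also lay near matched adipocyte domains more often: 36.1% were within 5000 bp of one (35.6 to 36.6), against 17.4% in macrophages (16.9 to 18.0). Over all domains, matched or not, the next domain was within 5000 bp for 60.5% and 36.8%, in the same order.

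The excess of adipocyte acetylation was found on every autosome, but to different degrees. The ratio of adipocyte to macrophage length was above 1 on 19 of 19 autosomes, from 1.28 on chromosome 13 to 2.97 on chromosome 6, with a median of 1.80. After chromosome 6 came chromosomes 15 (2.52), 19 (2.51) and 8 (2.39). Adipocytes had more domains on 17 of 19, and fewer on chromosome 10 (1993 against 2131) and chromosome 13 (1604 against 1647). On chromosome 6 the adipocyte list held 4365 domains and 8.70 Mb, and the macrophage list 2077 domains and 2.93 Mb. The copy number of each chromosome in either cell type was not read from these files.

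At the scale of 1 Mb the same parts of the genome were rich in acetylation in both cell types. Across 2467 windows the acetylated length of macrophages and adipocytes had a Spearman rho of 0.883 and a Pearson r of 0.818, a description over neighbouring windows that share gene density and mappable sequence. Adipocytes had more in 1394 windows, macrophages in 587, and 485 had none in either. Of the 247 windows richest in each cell type, 163 were the same. The largest adipocyte excesses were on chromosome 11 at 120000001 to 121000000 (433.2 kb against 116.3 kb), chromosome 15 at 76000001 to 77000000 (441.8 kb against 125.2 kb) and chromosome 6 at 115000001 to 116000000 (380.9 kb against 83.2 kb). The largest macrophage excesses were smaller: 89.8 kb against 29.15 kb on chromosome 1 at 192000001 to 193000000, 99.55 kb against 45.5 kb on chromosome 11 at 114000001 to 115000000, and 69.95 kb against 16.95 kb on chromosome 10 at 98000001 to 99000000. In the last window 53 macrophage domains stood against 6 adipocyte domains.

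The other libraries, which were not used to choose or match the domains, differed between matched and unmatched domains. PU.1 is an ETS-family factor needed for myeloid cells, C/EBPβ a leucine-zipper factor used in both lineages, and PPARγ the nuclear receptor that drives fat cell formation. Over all widths a PU.1 peak met 42.4% of overlapped (41.7 to 43.1) and 33.6% of unmatched macrophage domains (32.9 to 34.3), but overlapped domains were the wider. Peaks were therefore also counted by their centre per Mb of acetylated length, and PU.1 then stood at 308.6 in overlapped and 371.4 in unmatched macrophage domains. In macrophage domains of 2000 to under 5000 bp, PU.1 had 516.5 centres per Mb without an adipocyte counterpart and 318.8 with one. In domains of 5000 bp or more these values were 498.6 and 388.6, and under 1000 bp 217.6 and 186.8. Unmatched macrophage domains were the denser in PU.1 in each of these classes, by the smallest ratio in the narrowest. C/EBPβ had 353.6 centres per Mb without and 205.6 with a counterpart at 2000 to under 5000 bp, and 123 and 116.6 under 1000 bp. Macrophage PPARγ, with fewer peaks, had 38.1 and 16.5 centres per Mb at 2000 to under 5000 bp. Under 1000 bp these were 8.69 and 11.1, with the order turned, but from only 70 and 34 centres. The shares of domains with a PPARγ peak there were 0.910% (0.752 to 1.10) and 1.07% (0.802 to 1.42), with intervals that overlap. Of the 61 unmatched macrophage domains of 5000 bp or more, 60 met a PU.1 peak, 98.4% (91.3 to 99.7), and 57 a C/EBPβ peak, 93.4% (84.3 to 97.4). Among the 487 overlapped domains of that class the shares were 93.4% for PU.1 (90.9 to 95.3) and 79.9% for C/EBPβ (76.1 to 83.2). The intervals thus overlapped for PU.1 but not for C/EBPβ. Over all 548 domains of the class the shares were 94.0% and 81.4%. None of the 61 unmatched domains met an adipocyte PPARγ peak, which allows a share of up to 5.92% by the Wilson interval. Of the overlapped ones, which hold adipocyte acetylation by definition, 7.60% did (5.56 to 10.3).

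Adipocyte domains showed the same order for adipocyte PPARγ. Among adipocyte domains of 5000 bp or more, 31.5% of the 831 unmatched domains met an adipocyte PPARγ peak (28.5 to 34.8), against 13.9% of the 2864 overlapped ones (12.6 to 15.2). Per Mb these were 49.8 and 19.7 centres. At 2000 to under 5000 bp they were 42.95 and 10.9, and under 1000 bp 7.26 and 6.71, from 98 and 13 centres. Macrophage PU.1 met 11.6% of the unmatched adipocyte domains of 5000 bp or more (9.55 to 13.9) and 67.4% of the overlapped ones (65.7 to 69.1). The overlapped ones hold macrophage acetylation by definition, and how far that sets this difference was not tested.

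Narrow domains met a peak less often than wide ones. Of all macrophage domains under 1000 bp, 17.5% met a PU.1 peak (16.96 to 18.15), against 94.0% of those of 5000 bp or more (91.7 to 95.7). PU.1 density differed less than this and not evenly, with 209.1, 375.3, 348.7 and 400.3 centres per Mb from the narrowest to the widest class. Of all adipocyte domains under 1000 bp, 0.655% met an adipocyte PPARγ peak, against 17.8% of those of 5000 bp or more. Where 1 macrophage domain met several adipocyte domains, PU.1 stood at 400.2 centres per Mb of macrophage length, against 304.1 in one-to-one pairs and 295.2 where several macrophage domains shared 1 adipocyte domain. Adipocyte PPARγ had the opposite order over adipocyte length, with 8.33, 14.2 and 18.5 centres per Mb in these forms, from 18, 513 and 260 centres. Of these 3 forms each factor was thus densest where its own cell type had the single domain. The forms also differ in width, with medians of 2625, 1600 and 1200 bp for macrophage domains and of 1000, 2550 and 6500 bp for adipocyte domains, in the order of the PPARγ densities. The factor and the acetylation of a cell type were mapped in cells of the same kind, and these densities were not tested.

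**Figure D5:**
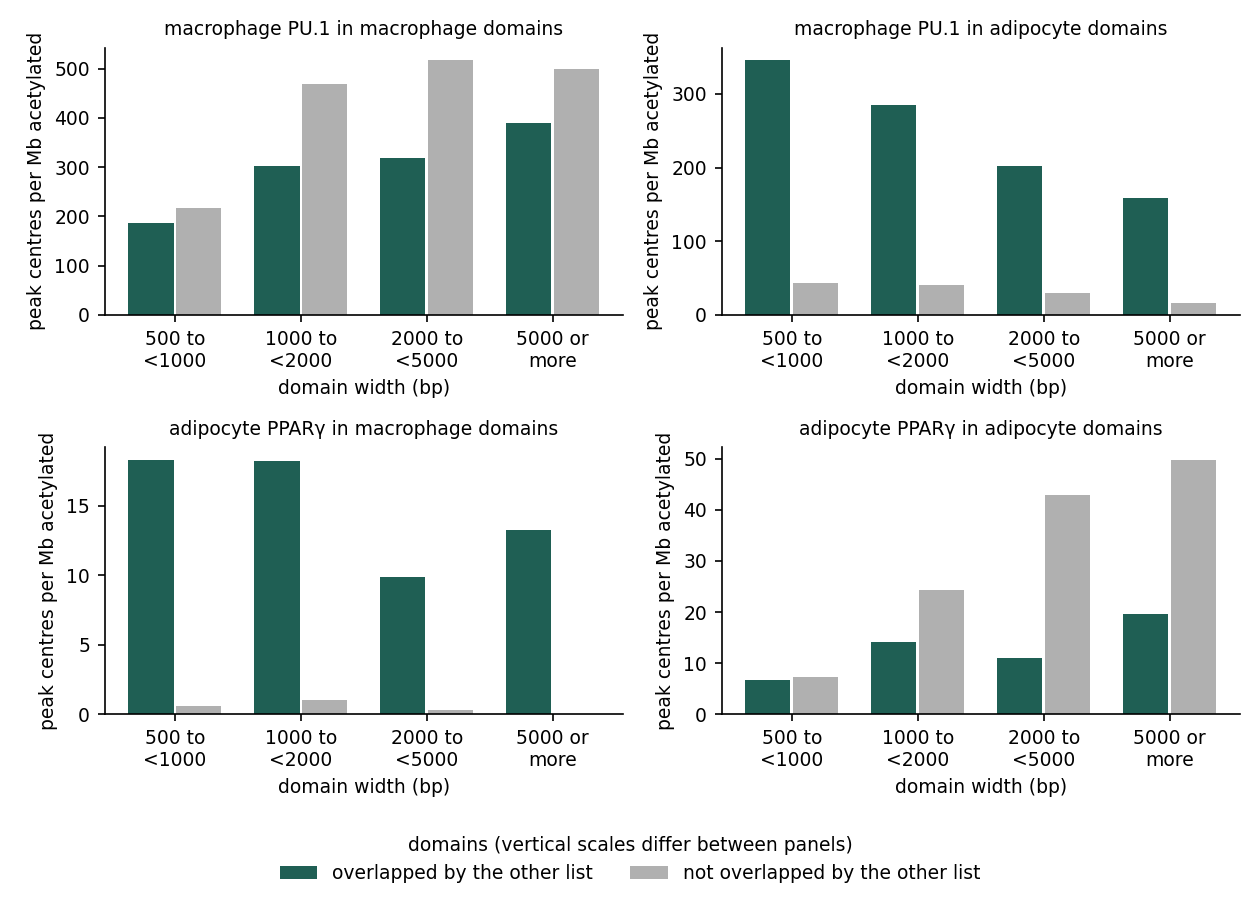
Peak centres per Mb of acetylated length for macrophage PU.1 (top) and adipocyte PPARγ (bottom) in macrophage domains (left) and adipocyte domains (right), by width class, for domains overlapped (green) or not overlapped (grey) by the other list; vertical scales differ between panels. In its own cell type each factor is denser in unmatched domains, for example 49.8 against 19.7 centres per Mb of PPARγ in adipocyte domains of 5000 bp or more. The difference is smallest under 1000 bp, where PPARγ has 7.26 against 6.71, from 98 and 13 centres. In domains of the other cell type each factor is denser in overlapped ones, which by definition hold acetylation of the factor's own cell type.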

How the data were processed

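ChIP-seq (chromatin immunoprecipitation followed by sequencing) was run once for H3K9Ace in each cell type. Per the labels' protocols, 36-bp reads were placed on mm8 by ELAND, reads with more than 2 mismatches or without a unique best match were dropped, and, per the series design text, the final lists exclude areas with input bias. The peak caller is not given in the sources used here, nor are its settings or its control. The deposited lists hold positions in bp, which the authors gave without a value per domain for H3K9Ace. For PPARγ, PU.1 and C/EBPβ the final deposited lists were used, and the longer PPARγ lists and the masked intervals were not used.

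Libraries were grouped by title. The 20 repeated rows of the adipocyte list were dropped. Overlaps, gaps, groups of overlapping domains and distances were computed in Python 3.11.15 with pandas 2.3.3, numpy 2.4.6 and scipy 1.17.1. Overlaps, groups and distances between the lists were checked on simulated lists with a known matching. Gaps within a list and groups of several to several domains were not part of that check. Coordinates are printed 1-based. Domains were named by a fixed rule: the 3 widest of each list, the widest of 5000 bp or more with no and with exactly 1 counterpart, the one with most counterparts, the most alike and most unequal wide pair, and the 3 windows of 1 Mb with the largest excess in each direction. The domains, classes and lists were chosen with earlier results of these data known. The reference tables at hand use another build than the files, so no gene was assigned and no sequence was read. Alternatives changed the rows, chromosomes, minimum width, joining and overlap rule.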

Additional observations from a re-analysis of the deposited data

Results flagged for a closer look

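Acetylated domains were also called outside the autosomes, in data that enter no comparison above. Chromosome X held 474 macrophage and 761 adipocyte domains, with 0.757 and 1.38 Mb. Of these, 66.5% of the macrophage domains (95% Wilson interval 62.1 to 70.6) and 42.4% of the adipocyte domains (39.0 to 46.0) were overlapped by the other list, both above the highest value of any autosome, 61.1% and 39.2%. Chromosome Y held 32 macrophage domains, from 233701 to 2668700, with 0.0426 Mb, and the adipocyte list had 0 there.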

How the results depend on the processing

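The settings gave 67 values for 9 results, of which 34 stayed within the interval of the reported share or, for a length, within 1.5 times. Keeping the repeated rows or adding chromosomes X and Y moved none of the 9 beyond that. In each setting that gave both, other than joins of 5000 bp or more, the overlapped share stayed higher in macrophages and the share with a neighbour within 5000 bp higher in adipocytes, and pairs were mostly wider in adipocytes. Overlapped macrophage domains were 59.0% without domains under 1000 bp, 46.1% with an overlap of at least 50% of the shorter domain, 44.9% with at least 500 bp, and 44.4% by centres. For adipocyte domains these were 40.3%, 29.7%, 28.9% and 24.5%, with 32.5% without chromosome 6 and 39.5% after joining gaps of at most 1000 bp. With the adipocyte list limited to its widest 36757 domains, a setting added after seeing the data, the shares were 45.2% and 39.3%. Pairs wider in adipocytes were 83.5% without domains under 1000 bp, 77.6% after joining and 77.7% with at least 500 bp. Macrophage domains of 5000 bp or more with several counterparts were 16.2% without narrow domains, 11.2% after joining and 23.7% with 50% of the shorter domain, and adipocyte ones 20.3% without narrow domains and 25.1% after joining. Joining changed the size of the class more than the total of its split domains. These were 144 of 1284 macrophage and 1434 of 5720 adipocyte domains, against 150 of 548 and 1250 of 3695. Which domains stayed split was not followed. Longer joins, also added after seeing the data, gave overlapped shares of 49.48% in macrophages and 45.02% in adipocytes at 2000 bp, and turned their order to 52.59% and 52.95% at 5000 bp, 57.27% and 59.49% at 10000 bp, and 63.97% and 67.07% at 20000 bp. A neighbour within 5000 bp was found for 25.8% of macrophage and 44.9% of adipocyte domains without narrow domains, for 26.5% and 40.3% after joining, and for 60.0% of adipocyte domains without chromosome 6. No paired analysis was possible because each cell type has 1 library. The depth is unknown, so how many weak domains either list misses could not be read.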

Other observations

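Runs of domains of 1 list, each within 1000 bp of the next, were more frequent in adipocytes. Runs of 2 or more held 53.6% of adipocyte domains (95% Wilson interval 53.17 to 54.04) and 25.1% of macrophage domains (24.6 to 25.5). Runs of 5 or more numbered 798 in adipocytes and 61 in macrophages, with 4835 and 348 domains. The longest adipocyte run had 19 domains on chromosome 10 at 79433151 to 79514100, of which 74.6 of 80.95 kb were acetylated and 9 domains were overlapped by macrophage domains. The longest macrophage run had 10 domains on chromosome 14 at 24290151 to 24335350, of which 40.95 of 45.2 kb were acetylated. All 10 were overlapped, since they lie within the adipocyte domain of 59050 bp described above.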
